A study of Rattus norvegicus with 24 samples.

Results

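The glucocorticoid-responsive regulators followed here are 8 genes, *Nr3c1*, *Fkbp5*, *Tsc22d3*, *Klf9*, *Klf15*, *Cebpb*, *Cebpd* and *Zbtb16*. They were picked by gene symbol, with earlier results of these data known. All 8 were among the 10851 genes of the count table. The table came from RNA sequencing of the medial gastrocnemius, a hindlimb muscle of mostly fast fibres, in 24 male Wistar rats. The rats formed 4 groups of 6. Sed rats received saline and stayed sedentary. Ex rats received saline and trained on a treadmill. CC-Sed rats received monocrotaline and stayed sedentary, and CC-Ex rats received monocrotaline and trained. Monocrotaline injures the vessels of the lung, so the right ventricle fails and the animals lose weight, the state called cardiac cachexia (CC). Per the methods, CC was judged at the end from weight loss, a heavier heart and poor exercise tolerance, so the CC libraries stand for animals that lived to that point. Each library was 1 animal, and animals were not pooled. The age of the rats and the hour at which each muscle was taken are not given in the sources used here.

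Glucocorticoids such as corticosterone enter the cell and bind the glucocorticoid receptor, encoded by *Nr3c1*, which moves to the nucleus and changes the transcription of its target genes. In skeletal muscle these targets include the feedback inhibitor *Fkbp5*, transcription factors that act on amino acid and lipid use, such as *Klf15*, and genes of protein breakdown. The hormone has a daily rhythm and rises in illness and fasting. Many of the same genes also answer to other signals, among them FoxO factors, cytokines and the circadian clock. Hormone levels were not analysed here.

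Total counts per rat lay between 37816239 and 50350554. The lowest count of any member in any rat was 267, for *Cebpd* in Ex replicate 3, while the lowest value in the table was 10. Levels are given in CPM, the counts of a gene scaled to a common library size with TMM. Fast-fibre markers were abundant in all groups, with 5 of 7 listed genes in the table and summed levels of 61657 to 183264 CPM over the rats. The rat CC-Ex replicate 5 stood apart from its group. It had the highest level of 5 of the 8 members, and the lowest summed level of 6 of the 7 marker lists for cells other than muscle fibres. Calls of the members in the comparisons that include it, and counts of the gene lists, are given both ways where leaving it out changed them. For Sed vs. CC-Sed the members' values without it are not given here.

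To ask what CC did to these genes without training, Sed and CC-Sed rats were compared. *Fkbp5*, *Klf9*, *Klf15*, *Cebpd* and *Zbtb16* were higher in CC-Sed, with mean differences from 1.67-fold for *Klf9* to 5.97-fold for *Cebpd*. *Nr3c1*, *Tsc22d3* and *Cebpb* did not pass the test. In the edgeR quasi-likelihood test with Benjamini-Hochberg adjustment, 5 of 8 members passed at 0.05 with a higher level, beside 4.3% of all genes. Adding the study's criterion of a Log2FC (log2 fold change) of at least 1 in size, 4 members were DEGs (differentially expressed genes), beside 1.38% of all genes. The median Log2FC of the 8 members was 0.88, against 0.02 over all genes. For 4 members, *Fkbp5*, *Klf9*, *Klf15* and *Cebpd*, all 6 CC-Sed rats lay above all 6 Sed rats, an arrangement seen in 2.32% of all genes. With 1 rat left out at a time the number of DEGs was 2 to 4, and it was 2 without Sed replicate 2 or 5 or CC-Sed replicate 1, 3 or 6. *Fkbp5* and *Cebpd* were DEGs in all 12 of these fits and *Klf9* kept an adjusted p-value under 0.05 in all 12, while *Klf15* did in 6 and *Zbtb16* in 3.

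The same question in trained rats was put to Ex and CC-Ex. *Klf15* and *Cebpd* were higher in CC-Ex, by 3.21-fold and 6.38-fold. The other 6 members did not pass, and 4 of them, *Fkbp5*, *Tsc22d3*, *Klf9* and *Zbtb16*, had adjusted p-values between 0.0517 and 0.0813 in the edgeR test. The count of 2 of 8 members with an adjusted p-value under 0.05 stood beside 0.875% of all genes, and the 2 DEGs beside 0.442%. Here the median Log2FC of the members was 1.12, against 0.01 over all genes. No member separated the groups fully, which 0.737% of all genes did. The count depended on single rats. It fell to 0 without CC-Ex replicate 5, without CC-Ex replicate 6 or without any of the 6 Ex rats, and it was 3 without CC-Ex replicate 2, 4 without CC-Ex replicate 1 and 5 without CC-Ex replicate 4. With an Ex rat left out the Log2FC stayed between 1.59 and 1.75 for *Klf15* and between 2.53 and 2.95 for *Cebpd*. The 12 rats alone gave 0 members, upper-quartile scaling 1 and DESeq2 5. How many of all genes each of these fits called is not given, so a more or less liberal test cannot be told from a change in the members.

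When the effects in sedentary and trained rats were averaged, 7 of 8 members were higher in CC, beside 17.2% of all genes with an adjusted p-value under 0.05 and a higher level. Of these, *Fkbp5*, *Klf15*, *Cebpd* and *Zbtb16* were DEGs, beside 2.06% of all genes. All 7 kept an adjusted p-value under 0.05 in each of 24 fits that left out 1 rat. *Zbtb16* was a DEG in 18 of these fits and *Tsc22d3* in 3. Without CC-Ex replicate 5 the DEGs were 3, since *Zbtb16* had a Log2FC of 0.98. *Nr3c1* was the exception, with a Log2FC of -0.09 (edgeR adjusted p = 0.273). The plot of Log2FC values shows the averaged effect with narrower intervals than each single comparison.

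**Figure D1:**
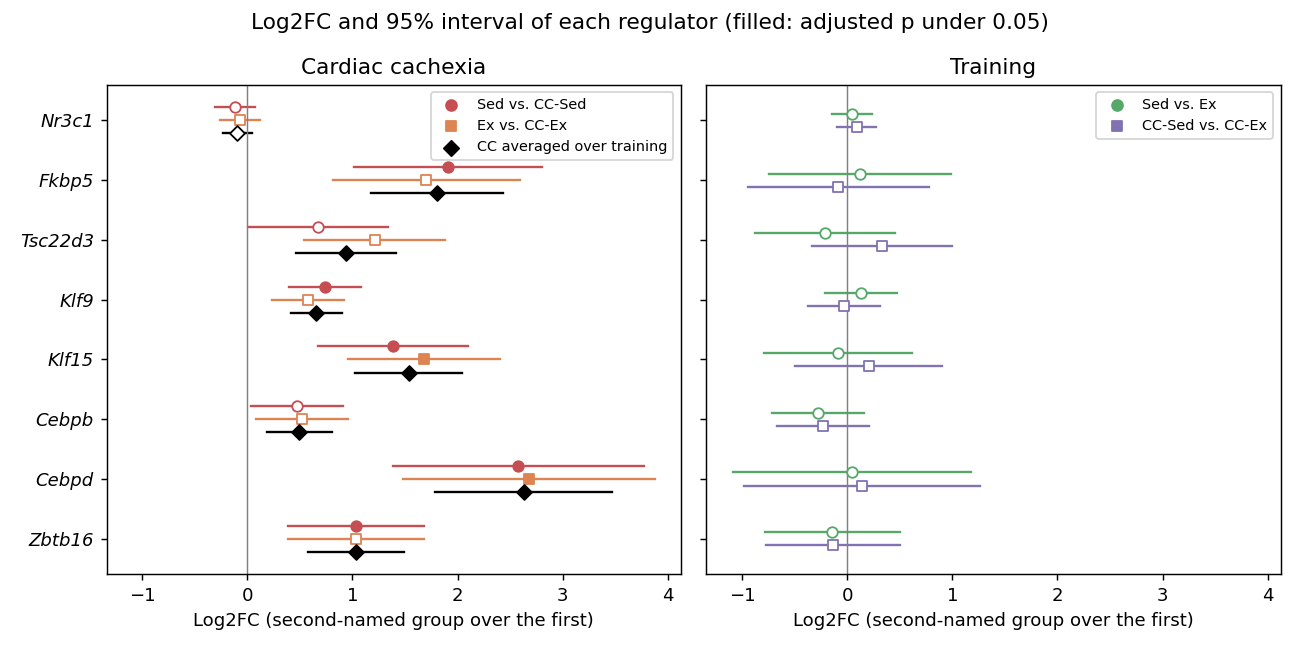
Log2FC of the 8 regulators (x axis) with 95% intervals from the edgeR fit, for CC against control (left) and trained against sedentary (right). Filled symbols have an adjusted p-value under 0.05. In the left panel 7 genes lie to the right of 0 with averaged Log2FC values from 0.49 to 2.63, and in the right panel every interval spans 0.

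*Nr3c1*, the receptor gene itself, had similar levels in all groups. Its lowest, median and highest levels were 72.7, 85.9 and 101 CPM in Sed and 67.4, 80.2 and 90.7 CPM in CC-Sed. In Ex they were 82.0, 87.7 and 96.3 CPM and in CC-Ex 75.6, 81.8 and 94.4 CPM. The 4 ranges overlapped, and no group lay apart from another. The Log2FC was -0.12 (95% interval -0.30 to 0.07) in sedentary and -0.07 (-0.26 to 0.12) in trained rats, with edgeR adjusted p-values of 0.413 and 0.633. Receptor protein was not measured here.

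*Fkbp5* encodes a co-chaperone that lowers the affinity of the receptor for its hormone and is itself switched on by the receptor, which closes a feedback loop. Its level ran from 10.5 through a median of 32.6 to 66.4 CPM in Sed, and from 83.5 through 125 to 205 CPM in CC-Sed. The lowest CC-Sed rat was above the highest Sed rat. The Log2FC was 1.91 ± 0.432 (SE, n = 6 and 6), a 3.75-fold difference, with an edgeR adjusted p-value of 0.0148. Among trained rats the lowest, median and highest levels were 16.9, 39.9 and 58.9 CPM in Ex and 46.9, 105 and 246 CPM in CC-Ex. Only CC-Ex replicate 2, the lowest of its group, fell within the Ex range. The Log2FC there was 1.70 ± 0.429 (SE, n = 6 and 6, edgeR adjusted p = 0.0517), and 1.38 without CC-Ex replicate 5. In the averaged comparison *Fkbp5* rose by a Log2FC of 1.81, which is 3.50-fold (edgeR adjusted p = 5.96e-04). Control rats differed widely in this gene, by 6.34-fold between the highest and the lowest Sed rat.

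*Tsc22d3* encodes GILZ, a leucine zipper protein through which glucocorticoids restrain inflammation. It was at 131, 153 and 233 CPM (lowest, median, highest) in Sed and at 180, 250 and 370 CPM in CC-Sed. Of the CC-Sed rats 4 exceeded the highest Sed rat, and the other two lay over the median of the Sed group. In Ex the levels were 113, 135 and 179 CPM and in CC-Ex 136, 219 and 872 CPM. Among the CC-Ex rats 5 were above all Ex rats, and replicate 5 at 872 CPM was far above the next, replicate 6 at 324 CPM. Neither comparison passed, with a Log2FC of 0.67 ± 0.322 (edgeR adjusted p = 0.174) in sedentary and 1.21 ± 0.325 (edgeR adjusted p = 0.0623) in trained rats (SE, n = 6 and 6). Without CC-Ex replicate 5 the second value was 0.61. The averaged Log2FC was 0.94 ± 0.229 with an edgeR adjusted p-value of 0.00631, and 0.63 without that rat. The limma-voom fit, which gives less weight to outlying libraries, and the fit of the 12 sedentary rats alone called *Tsc22d3* higher in CC-Sed, with adjusted p-values of 0.0173 and 0.04996.

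RefSeq promoter windows of 250 bases before each gene start (build GRCr8, another build than that of the counts) were found for 6 of the 8 members, 9 windows in all out of 33469, and searched for short motifs. *Cebpd* and *Zbtb16* had none in the table. A FoxO motif and a TATA box were found in 1 of 3 *Tsc22d3* windows. Both stretches are shown on the strand of the gene with the matched letters in capitals, the first at chrX:109010179-109010208 (minus strand), where the motif GTAAACA reads on the opposite strand, and the second at chrX:109010061-109010090 (minus strand).
Tsc22d3 FoxO motif: aaagtgctgaacTGTTTACagtccctgact
Tsc22d3 TATA box: tggctcctcctaTATAAAgaagcaggagcc
Counting the base before the gene start as -1, the first base of the FoxO motif is at -162 and that of the TATA box (TATAAA) at -44.

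*Klf9*, a Krüppel-like factor that glucocorticoids induce in many tissues, varied little among controls, at 68.9, 78.7 and 92.2 CPM (lowest, median, highest) in Sed. In CC-Sed rats it was at 96.1, 132 and 179 CPM, so the groups did not overlap. The Log2FC was 0.74 ± 0.166 (SE, n = 6 and 6, edgeR adjusted p = 0.0147), a modest 1.67-fold difference. In Ex and CC-Ex the levels were 72.5, 88.6 and 99.7 CPM and 94.2, 111 and 203 CPM. Here 1 CC-Ex rat fell within the Ex range, and the Log2FC was 0.58 ± 0.166 (edgeR adjusted p = 0.0734), or 0.39 without CC-Ex replicate 5. In the averaged comparison *Klf9* rose by a Log2FC of 0.66 (edgeR adjusted p = 8.71e-04).

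*Klf15*, a Krüppel-like factor that drives the breakdown of branched-chain amino acids in muscle, was at 23.8, 32.98 and 41.1 CPM in Sed and at 55.4, 81.3 and 124 CPM in CC-Sed (lowest, median, highest). All CC-Sed rats exceeded all Sed rats. The Log2FC was 1.39 ± 0.345 (SE, n = 6 and 6), which is 2.62-fold, with an edgeR adjusted p-value of 0.0236. In Ex the gene was at 20.1, 33.3 and 38.3 CPM, and in CC-Ex at 35.5, 69.3 and 235 CPM. The lowest CC-Ex rat, replicate 4, was inside the Ex range and replicates 5 and 6 were far above the others. The Log2FC was 1.68 ± 0.348 (edgeR adjusted p = 0.0325), and 1.20 with the call lost without CC-Ex replicate 5. Averaged over training the difference was 2.90-fold (edgeR adjusted p = 3.91e-04).

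The windows of these 2 factors carried motifs of other regulators. The whole *Klf9* window is shown, chr1:230126396-230126645 on the plus strand of GRCr8, since it holds both a FoxO motif (GTAAACA, first base at -133 from the gene start) and a core motif of the cAMP response element (CRE, TGACGT, first base at -79), each in capitals. The *Klf15* stretches are at chr4:124522827-124522856 and chr4:124522902-124522931, both on the plus strand, with TGACGT at -176 and an E-box (CACGTG), the motif bound by clock factors among others, at -101.
Klf9 window: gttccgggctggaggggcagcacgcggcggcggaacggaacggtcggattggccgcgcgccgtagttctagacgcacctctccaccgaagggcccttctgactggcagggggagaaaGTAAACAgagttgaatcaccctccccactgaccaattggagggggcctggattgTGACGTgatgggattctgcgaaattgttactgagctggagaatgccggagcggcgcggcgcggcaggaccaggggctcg
Klf15 CRE motif: gggcgcggctcgTGACGTgcagcgctagcc
Klf15 E-box: cgcccgcggcgtCACGTGagcggtcggaga
Across all 33469 windows, searched on both strands, GTAAACA was present in 3.21% and TGACGT in 6.95%, and each was in 2 of the 9 member windows. CACGTG was present in 5.59% of all windows and in 1 member window. TATAAA was present in 12.9% and in 2 member windows, those of *Tsc22d3* and *Cebpb*. The palindrome of the receptor, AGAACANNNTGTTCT, was in 0.012% of all windows and its single arm TGTTCT in 17.5%, and neither was in a member window, which says only that these letters are not in these 250 bases. No matches of different motifs overlapped.

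*Cebpd* encodes C/EBPδ, a transcription factor of the acute-phase response that glucocorticoids and cytokines both induce, and it showed the largest Log2FC of the 8 members in both CC comparisons. Its levels were 7.03, 8.45 and 24.0 CPM (lowest, median, highest) in Sed and 25.6, 72.9 and 126 CPM in CC-Sed. Every CC-Sed rat was above every Sed rat, although the margin between the closest rats was small. The Log2FC was 2.58 ± 0.577 (SE, n = 6 and 6), a 5.97-fold difference, with an edgeR adjusted p-value of 0.0147. In Ex the levels were 6.53, 11.8 and 25.2 CPM and in CC-Ex 10.2, 63.7 and 195 CPM. The CC-Ex rats covered a 19.2-fold range. Replicates 1 and 4, at 10.2 and 23.4 CPM, lay inside the Ex range and replicates 5 and 6, at 195 and 157 CPM, well above it. The Log2FC was 2.67 ± 0.579 (edgeR adjusted p = 0.0329), and 2.23 with the call lost without CC-Ex replicate 5.

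*Cebpb* encodes C/EBPβ, which acts on atrophy genes in wasting muscle. It was at 29.2, 48.6 and 67.0 CPM in Sed, 45.8, 68.0 and 89.6 CPM in CC-Sed, 25.0, 41.1 and 54.1 CPM in Ex and 43.5, 57.3 and 75.4 CPM in CC-Ex (lowest, median, highest). The groups overlapped in both comparisons, with 3 CC-Sed rats above all Sed rats and 4 CC-Ex rats above all Ex rats. Its Log2FC was 0.47 ± 0.212 in sedentary and 0.52 ± 0.212 in trained rats (SE, n = 6 and 6), with edgeR adjusted p-values of 0.151 and 0.161. The averaged Log2FC of 0.49 ± 0.150 passed, with an edgeR adjusted p-value of 0.0199.

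*Zbtb16* encodes PLZF, a zinc finger repressor that glucocorticoids induce strongly in many cell types. Its levels were 15.8, 27.7 and 74.1 CPM (lowest, median, highest) in Sed and 52.6, 62.1 and 90.9 CPM in CC-Sed. Without Sed replicate 3, which was at 74.1 CPM while the next Sed rat was at 29.6 CPM, the groups would not have overlapped. The Log2FC was 1.03 ± 0.313 (SE, n = 6 and 6, edgeR adjusted p = 0.0497), and this call was close to the threshold. It was lost with upper-quartile scaling, with library number as covariate and in the 12 rats alone (adjusted p = 0.0614, 0.0595 and 0.0694) and in 9 of 12 fits that left out 1 rat, while without Sed replicate 3 the adjusted p-value was 0.00908 and the Log2FC 1.47 (edgeR). In Ex the gene was at 18.6, 29.7 and 36.9 CPM and in CC-Ex at 25.0, 65.6 and 85.9 CPM. Among the CC-Ex rats 5 were above all Ex rats and replicate 2 was within their range. The Log2FC of 1.04 ± 0.313 did not pass (edgeR adjusted p = 0.0813). Averaged over training, *Zbtb16* was 2.05-fold higher in CC (edgeR adjusted p = 0.00292).

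**Figure D2:**
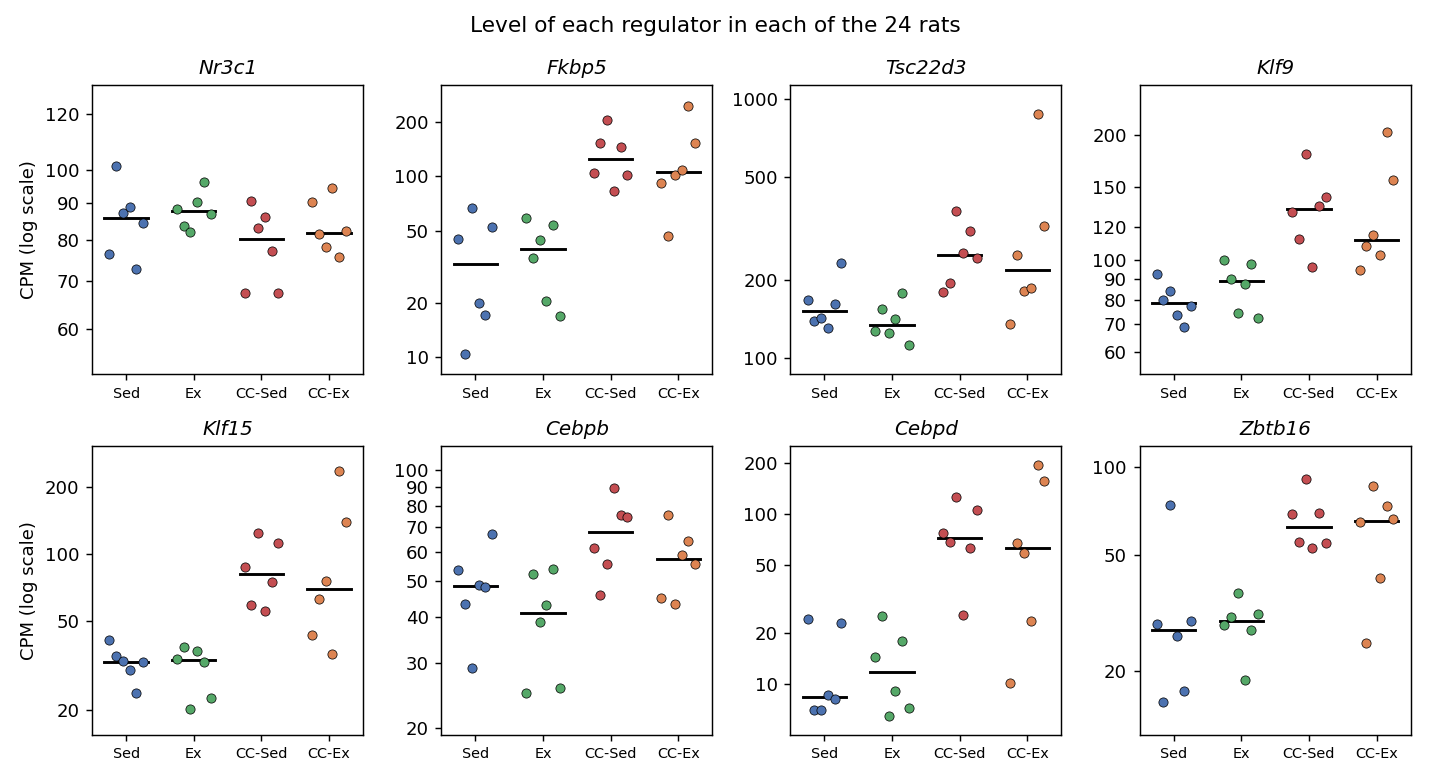
CPM (log scale) of the 8 regulators in the rats of each group, 1 point per rat, with the group median as a bar. *Nr3c1* is flat at 67.4 to 101 CPM, while *Cebpd* goes from 6.53 to 25.2 CPM in the saline rats to between 10.2 and 195 CPM in the CC rats, and CC-Ex replicate 5 is the top point of its group for *Fkbp5*, *Tsc22d3*, *Klf9*, *Klf15* and *Cebpd*.

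Training had no detectable effect on any member, in saline or in CC rats. In saline rats (Sed vs. Ex) the Log2FC of the 8 members lay between -0.28 for *Cebpb* and 0.13 for *Klf9*, and the smallest unadjusted edgeR p-value was 0.200. In CC rats (CC-Sed vs. CC-Ex) they lay between -0.23 for *Cebpb* and 0.33 for *Tsc22d3*, with a smallest unadjusted edgeR p-value of 0.286. Of the 10851 genes 0 passed the edgeR test in either comparison (0%), while 118 and 234 had an unadjusted p-value under 0.05, none of them a member. DESeq2 and limma-voom also called no member. The precision differed by gene. In CC rats the 95% interval of the training effect was -0.10 to 0.28 for *Nr3c1* and -0.37 to 0.31 for *Klf9*, but -0.98 to 1.26 for *Cebpd* and -0.95 to 0.78 for *Fkbp5*, so for *Cebpd* differences of more than 1 log2 unit lie within the interval.

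The difference between the CC effects in trained and sedentary rats, the interaction, was tested next, since more members passed in the sedentary comparison than in the trained one. No member passed, and the smallest unadjusted edgeR p-value was 0.247, for *Tsc22d3*. Its interaction Log2FC of 0.54 (95% interval -0.40 to 1.48) became -0.04 without CC-Ex replicate 5. For *Fkbp5* the interaction was -0.20 (-1.43 to 1.02) and for *Cebpd* 0.10 (-1.50 to 1.69). A different response of these genes to CC in trained and in sedentary rats was therefore not shown. Among all genes 154 had an unadjusted edgeR p-value under 0.05 for the interaction and none an adjusted one.

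Other glucocorticoid-induced genes of muscle were taken from a list, chosen with earlier results of these data known. Of 26 listed genes 22 were in the table, and 11 were higher in CC-Sed than in Sed, all of them DEGs, and none lower. Over all genes 4.3% were higher there and 1.38% were DEGs with a higher level. The 11 were *Ddit4*, an inhibitor of mTORC1, *Fbxo32* and *Trim63*, the ubiquitin ligases atrogin-1 and MuRF1, the transcription factors *Foxo1* and *Foxo3*, *Glul* (glutamine synthetase), *Pik3r1*, *Sesn1*, *Errfi1*, *Irs2* and *Mt2A*. In trained rats 8 of the 22 were higher and DEGs, namely *Ddit4*, *Fbxo32*, *Foxo1*, *Foxo3*, *Glul*, *Mt2A*, *Pik3r1* and *Sesn1*. The shares over all genes there were 0.875% higher and 0.442% DEGs with a higher level. The median Log2FC of the 22 was 1.47 in sedentary and 1.65 in trained rats, against 0.02 and 0.01 over all genes. In the averaged comparison 18 of the 22 were higher and none lower, beside 17.2% higher and 10.6% lower over all genes. Without CC-Ex replicate 5 the counts of higher genes were 13 in sedentary, 0 in trained and 15 in the averaged comparison. *Per1*, *Cdkn1a* and *Nfkbia* were those lost in the last, and *Cdkn1a* went from a Log2FC of 1.53 to 0.93.

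Examples show the size of these changes. *Ddit4* had mean levels of 15.4 and 111 CPM in Sed and CC-Sed, and its Log2FC was 2.85 ± 0.621 (SE, n = 6 and 6, edgeR adjusted p = 0.0138). *Foxo1* went from a mean of 12.6 to one of 66.4 CPM, higher by 2.40 ± 0.521 on the log2 scale (edgeR adjusted p = 0.0138). *Glul*, whose product makes the glutamine that wasting muscle exports, averaged 931 CPM in Sed and 2328 CPM in CC-Sed, with a difference of 1.32 ± 0.319 on the log2 scale (edgeR adjusted p = 0.0206). The widest was *Mt2A*, a metallothionein, at 2.54 and 99.2 CPM, with a Log2FC of 5.28 ± 1.37 (edgeR adjusted p = 0.0286), although reads of metallothioneins may be shared among close copies. The 4 genes that passed in none of the CC comparisons were *Sgk1*, *Rgs2*, *Bcl6* and the myostatin gene *Mstn*, with averaged Log2FC values from -0.30 to 0.31. Without CC-Ex replicate 5 the trained calls of *Ddit4*, *Fbxo32*, *Foxo1*, *Foxo3*, *Glul*, *Mt2A*, *Pik3r1* and *Sesn1* were all lost, with Log2FC values from 1.05 for *Foxo3* to 3.09 for *Mt2A*.

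**Figure D3:**
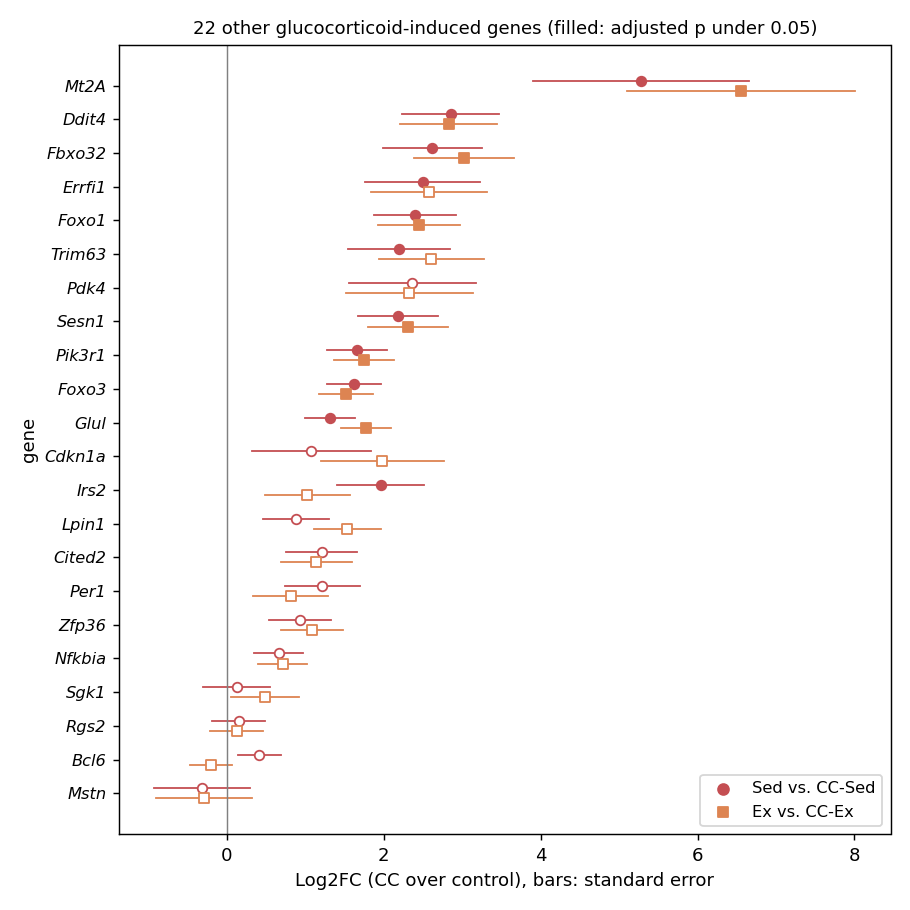
Log2FC (CC over control, bars are the standard error) of the 22 other glucocorticoid-induced genes in sedentary and trained rats, ordered by the averaged effect, with filled symbols for an edgeR adjusted p-value under 0.05. Filled symbols number 11 in Sed vs. CC-Sed and 8 in Ex vs. CC-Ex, and *Mt2A* is at the top with 5.28 and 6.56.

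Genes that act around the receptor were described next, from lists of steroid handling, chaperones and coregulators. Over all genes 4.3% were higher and 2.16% lower in Sed vs. CC-Sed, and 17.2% and 10.6% in the averaged comparison. Of 3 steroid-handling genes in the table, *H6pd* supplies the cofactor for making active glucocorticoid in the endoplasmic reticulum. It was higher in the averaged comparison (Log2FC 1.097 ± 0.272, edgeR adjusted p = 0.00691) and with all rats passed in neither single one. Without CC-Ex replicate 5 its averaged Log2FC was 0.67 (edgeR adjusted p = 0.00426). In Sed vs. CC-Sed it then passed too (Log2FC 0.93, edgeR adjusted p = 0.00692). *Hsd11b1*, the enzyme that uses that cofactor, had an averaged Log2FC of -0.05 and the mineralocorticoid receptor *Nr3c2* one of -0.26, and neither passed. None of 11 chaperone genes passed in a single comparison. In the averaged one *Fkbp4*, whose product competes with FKBP5 in the receptor complex, fell by 0.35 on the log2 scale (edgeR adjusted p = 0.0354), *Stip1* fell by 0.38 (edgeR adjusted p = 0.0114), and the p23 gene *Ptges3* rose by 0.45 (edgeR adjusted p = 0.0412). Without CC-Ex replicate 5 *Fkbp4* and *Ptges3* were no longer called, and *Hspa4* was called lower (Log2FC -0.19, edgeR adjusted p = 0.0396). Of 14 coregulator genes, *Crebbp*, a histone acetyltransferase, was higher in CC-Sed (Log2FC 0.54 ± 0.106, edgeR adjusted p = 0.00834), none passed in trained rats, and 5 were higher and none lower in the averaged comparison, or 3 without CC-Ex replicate 5, which cost *Crtc2* and *Hdac3* the call.

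Relatives and targets of the factors moved in both directions. For all counts of list genes, the shares over all genes were 4.3% higher and 2.16% lower in Sed vs. CC-Sed, and 17.2% higher and 10.6% lower in the averaged comparison. In Ex vs. CC-Ex 0.875% of all genes were higher. Among 10 genes of amino acid and lipid use linked to KLF15, 3 were higher in CC-Sed, the proline dehydrogenase gene *Prodh* (4.86 against 28.6 CPM, Log2FC 2.56 ± 0.414, edgeR adjusted p = 0.00286) and the branched-chain genes *Bckdha* (Log2FC 0.85, edgeR adjusted p = 0.00899) and *Dbt* (Log2FC 1.00, edgeR adjusted p = 0.0225). In trained rats only *Prodh* of these 10 passed (Log2FC 2.08 ± 0.406, edgeR adjusted p = 0.0325). In the averaged comparison *Bcat2* was also higher and the alanine transaminase gene *Gpt2* was lower, by a Log2FC of -0.89 (edgeR adjusted p = 0.0456). None of 10 other KLF genes passed in a single comparison, and averaged over training *Klf6*, *Klf10*, *Klf11* and *Klf12* were higher and *Klf5* lower. Without CC-Ex replicate 5 *Gpt2* and *Klf6* were no longer called in the averaged comparison, while *Klf6* passed in Sed vs. CC-Sed (Log2FC 0.71, edgeR adjusted p = 0.0322). Of 7 C/EBP relatives and partners none passed singly, and in the averaged comparison *Cebpz* was higher and *Trib1*, a pseudokinase that binds C/EBP proteins, lower with a Log2FC of -0.90 (edgeR adjusted p = 0.00563). Without CC-Ex replicate 5 *Cebpz* also passed in Sed vs. CC-Sed (Log2FC 0.38, edgeR adjusted p = 0.0202). In the TSC22 family *Tsc22d1* was higher (Log2FC 0.62, edgeR adjusted p = 0.0235) and *Tsc22d4* lower (Log2FC -0.75, edgeR adjusted p = 0.0200) in CC-Sed, and neither passed in trained rats.

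Values that moved with CC beside the members were collected for the clock and for other cells. Of 14 circadian clock genes in the table, 5 were higher and 4 lower in the averaged comparison. *Bmal1* had an averaged Log2FC of 1.79 ± 0.399 (edgeR adjusted p = 0.00386) and *Dbp* one of -1.82 ± 0.412 (edgeR adjusted p = 0.00410). *Nfil3* was the only clock gene higher in both single comparisons (Log2FC 1.72 and 1.85, edgeR adjusted p = 0.0274 and 0.0434), and without CC-Ex replicate 5 the second call was lost (Log2FC 1.32, edgeR adjusted p = 0.153). Without that rat 3 clock genes were higher and 4 lower in the averaged comparison, and in Sed vs. CC-Sed 2 were higher and 4 lower instead of 1 and 1. Several members follow the daily rhythm, and the part of the clock in their levels was not tested. Of 6 fibroblast markers 3 were lower in the averaged comparison, with summed medians of 1597 CPM in Sed, 792 in CC-Sed, 2063 in Ex and 474 in CC-Ex. None of 8 immune cell markers passed, with summed medians between 91.5 and 149 CPM in the 4 groups. The slow-fibre list, of which 4 of 7 genes were in the table, spanned 16.9 to 7381 CPM over the rats with none of the 4 called. Log2FC values of the 4 ran from 1.64 to 2.01 in Sed vs. CC-Sed and from -0.13 to 0.39 in Ex vs. CC-Ex. The lowest summed level of this list was that of CC-Ex replicate 5, and CC-Ex replicate 4 was at 28.2 CPM. Of the other marker lists, 1 of 3 adipocyte genes was lower, 1 of 5 endothelial genes was higher and 1 lower, 1 of 2 satellite cell genes and 2 of 3 erythroid genes were higher and none of 3 Schwann cell genes passed, again in the averaged comparison (over all genes 17.2% higher and 10.6% lower). Of these marker calls the adipocyte one was lost and all 3 erythroid genes were called without CC-Ex replicate 5. In Sed vs. CC-Sed none of these markers passed with all rats. Without that rat 1 endothelial gene was higher and 1 lower there, and 1 satellite cell gene was higher. The part of these cells in the members' levels was not tested, and in whole muscle fewer cells of a type and less RNA per cell cannot be told apart.

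Whether the members rose in the same animals was asked within the groups. The group mean of log2 CPM was subtracted from each value, and the 28 pairs of members were related over the 24 rats with Pearson's r and Spearman's rho, each with a two-sided permutation test of 100000 resamples within groups and Benjamini-Hochberg adjustment over the 28 pairs. By r, 9 pairs passed, all positive, and by rho also 9. The share of passing pairs among other genes was not determined, so this count is not shown to be particular to the members. The closest pair was *Klf9* and *Klf15*, with r = 0.926 and rho = 0.927 (permutation p = 1e-05 each, the smallest these resamples can give, adjusted 2.80e-04 and 1.40e-04). Leaving out the 2 rats farthest from the median of *Klf9* gave r = 0.890. *Klf15* and *Cebpd* followed (r = 0.829, rho = 0.813, permutation p = 6.00e-05 and 1e-05, adjusted 5.60e-04 and 1.40e-04), with r = 0.805 without the 2 farthest rats. *Tsc22d3* was related to *Klf9*, *Klf15* and *Cebpd* with r of 0.762, 0.762 and 0.719 and rho of 0.663, 0.629 and 0.666 (permutation p of r 9.50e-04, 0.00230 and 0.00200, adjusted 0.00527, 0.00805 and 0.00800), and r was 0.553, 0.520 and 0.563 without the 2 farthest rats. Pairs that also passed were *Klf9* and *Cebpd* (r = 0.807, adjusted permutation p = 5.60e-04) and *Tsc22d3* and *Cebpb* (r = 0.429, adjusted permutation p = 0.0438).

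*Fkbp5* and *Zbtb16* also passed. Their r was 0.719 and rho 0.623 (permutation p = 6.90e-04 and 0.00219, adjusted 0.00483 and 0.00962), and r was 0.598 without the 2 farthest rats. It was 0.723 in the 12 saline rats and 0.718 in the 12 CC rats (permutation p = 0.0147 and 0.0273, adjusted 0.103 and 0.0850), and neither passed alone. *Zbtb16* was not related to *Klf15*, with r = 0.262 and rho = 0.226 (permutation p = 0.306 and 0.334, adjusted 0.429 and 0.492), or to *Cebpd*, with r = 0.131 and rho = 0.183 (permutation p = 0.616 and 0.448, adjusted 0.692 and 0.570), and the difference between these relations was not tested. The last of the 9 pairs was *Fkbp5* and *Klf9* (r = 0.588, rho = 0.579, permutation p = 0.00113 and 0.00248, adjusted 0.00527 and 0.00962). Within the 12 CC rats this pair passed by r (0.764, adjusted permutation p = 0.0356) but not by rho (0.664, adjusted permutation p = 0.104). The receptor gene *Nr3c1* had r below 0 with each of the 7 others, from -0.11 with *Fkbp5* to -0.42 with *Cebpd* (permutation p = 0.0422, adjusted 0.0876), and none passed. Within the 12 CC rats 6 pairs passed by r and 3 by rho. Within the 12 saline rats none passed by either, and 6 had an unadjusted permutation p-value of r under 0.05. There *Klf9* and *Klf15* had r = 0.864 (permutation p = 0.00205, adjusted 0.0574). Without CC-Ex replicate 5, an alternative chosen after seeing the data, 8 pairs passed by r and 7 by rho. By r the pair no longer among them was *Tsc22d3* and *Klf15*.

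**Figure D4:**
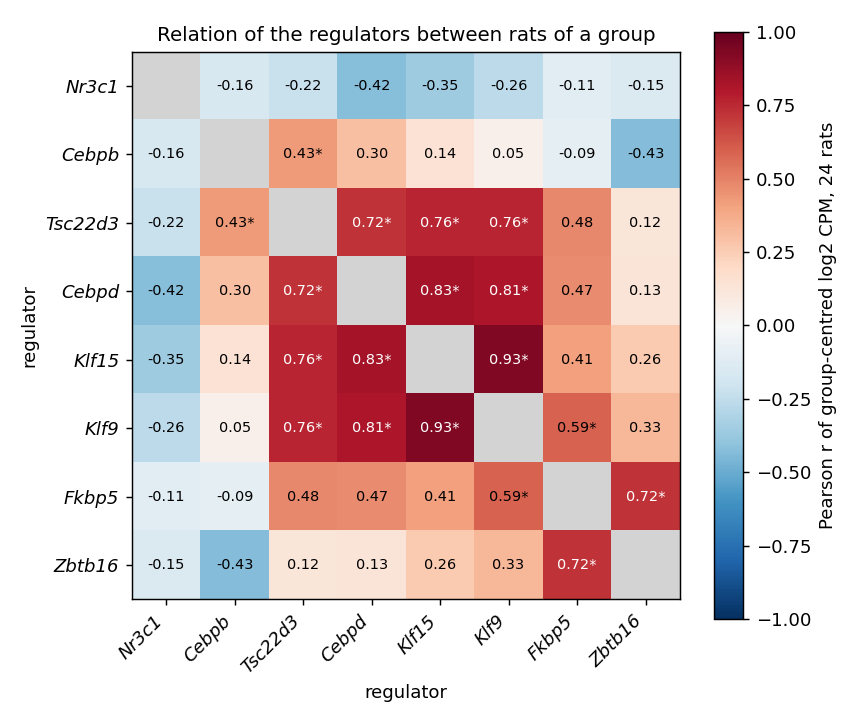
Pearson r of group-centred log2 CPM over the 24 rats for each pair of regulators, with the colour scale from -1 to 1 and an asterisk for an adjusted permutation p-value under 0.05. The block of *Tsc22d3*, *Cebpd*, *Klf15* and *Klf9* has r of 0.72 to 0.93, *Fkbp5* and *Zbtb16* have 0.72, and the row of *Nr3c1* is negative throughout.

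**Figure D5:**
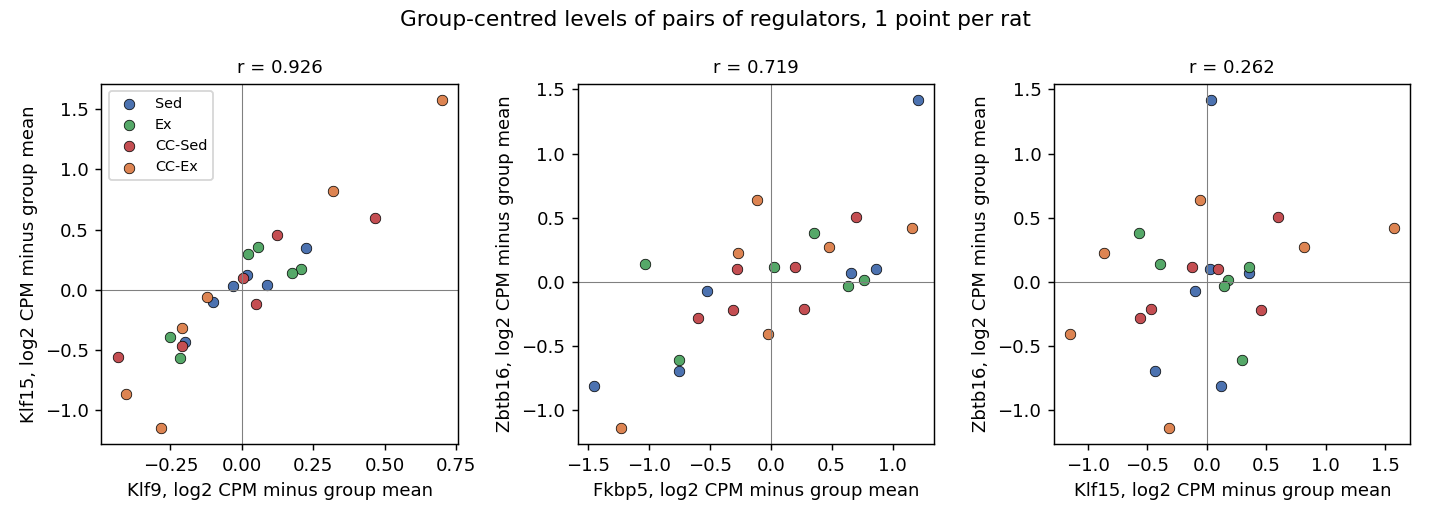
Group-centred log2 CPM of 3 pairs of regulators, 1 point per rat coloured by group. The points of *Klf9* and *Klf15* follow a line (r = 0.926), those of *Fkbp5* and *Zbtb16* spread more (r = 0.719) and those of *Klf15* and *Zbtb16* form no line (r = 0.262).

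The same rats were often at the top or the bottom of their group. CC-Sed replicate 3 was the highest of its group for *Fkbp5*, *Tsc22d3*, *Klf9*, *Klf15*, *Cebpd* and *Zbtb16*, and CC-Sed replicate 4 the lowest for all of these but *Tsc22d3*. CC-Sed replicate 4 was at the same time the highest for *Cebpb*, at 89.6 CPM. In CC-Ex, replicate 1 was lowest for *Tsc22d3*, *Klf9* and *Cebpd*, replicate 2 for *Fkbp5* and *Zbtb16*, and replicate 4 for *Klf15*. Among the Sed rats replicate 3 was highest for both *Fkbp5*, at 66.4 CPM, and *Zbtb16*, at 74.1 CPM, and replicate 2 was lowest for both, at 10.5 and 15.8 CPM.

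Finally, each member was set against all other genes for the closest pattern over the 24 rats, again after subtracting group means. These r values are the highest of 10851 genes and are given as a description. *Klf15* was closest to *Crebrf* (r = 0.931), *Pim3* (0.918) and *Sesn1* (0.916), and *Klf9* to *Sec24a* (0.891), *Ip6k2* (0.889) and *Foxo3* (0.887). For *Cebpd* the closest was *Ddit4* (0.883), then *Pold4* (0.873) and *Pgf* (0.843). *Tsc22d3* lay nearest to *Siah2* (0.875), *Bcar1* (0.853) and *Wtap* (0.846). *Fkbp5* had *Arhgap12* (0.783), *Chac1* (0.743) and *Glul* (0.742), and *Zbtb16* had *Cyria* (0.707), *Rfx7* (0.671) and *Ptpru* (0.665). The nearest to *Cebpb* were *Tob2* (0.728), *Tcim* (0.722) and *S1pr1* (0.718), and to *Nr3c1* they were *Gemin2* (0.836), *Ift172* (0.822) and *Ptp4a2* (0.800). Of these 24 genes, *Sesn1*, *Foxo3*, *Ddit4* and *Glul* were on the list of other glucocorticoid-induced genes, which holds 22 of the 10851 genes. That list was chosen with earlier results of these data known, and the overlap was not tested.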

How the data were processed

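RNA of the medial gastrocnemius was sequenced in 24 rats, 6 per group, with groups and replicate numbers taken from the labels. Reads were trimmed and quantified with Salmon (rat build mRatBN7.2). What the authors deposited are Salmon's estimated counts per gene, rounded, with no value under 10 and no scaling for library size. The rule for rounding and filtering is not given in the sources used here. Depth was 37816239 to 50350554 counts per rat.

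Counts were fitted in R 4.3.3 with edgeR 4.0.16 (TMM, quasi-likelihood F test, 1 model of 4 groups, all 10851 genes, the expression filter removing 0). Adjusted p-values are over all genes. An SE is the absolute Log2FC over the root of the F statistic. Relations used log2 CPM with a prior count of 2 in Python 3.11.15 with scipy 1.17.1. Scripts were tested on simulated data. Libraries were compared pairwise, and no pair was as alike as repeated sequencing of 1 library (chi-square per degree of freedom at least 28.1).

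The members and lists were chosen with earlier results of these data known. Named were all members, list genes passing in a CC comparison, otherwise the list gene with the smallest averaged p, and the 3 genes most like each member. A count, group or gene singled out beyond this was chosen after its values were seen. Alternatives were DESeq2 1.42.0, upper-quartile scaling, limma-voom with quality weights (limma 3.58.1), no filter, a filter of 1 CPM in 6 rats, the 12 rats of a comparison alone, a replicate block, a covariate for library number, calls without the Log2FC criterion, and each rat left out in turn. Library numbers ran from 1 to 14 in CC-Ex, 4 to 21 in CC-Sed, 7 to 23 in Ex and 9 to 24 in Sed, so this covariate partly follows the group. For relations the alternatives were a prior count of 0.5, upper-quartile scaling and the CC or saline rats alone. Leaving out CC-Ex replicate 5 in the relations and in the counts of every list was added after the data were seen. The methods name no pairing.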

Additional observations from a re-analysis of the deposited data

Results flagged for a closer look

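Dixon's test at the 95% level set 1 rat apart from its group of 6 in 3 of 32 combinations of member and group, and in 4 of 40 of marker list and group, where chance gives about 1 in 20. *Tsc22d3* was at 233.1 CPM in Sed replicate 6, with the next Sed rat at 168.1, and at 871.8 CPM in CC-Ex replicate 5, with the next at 324.0. *Zbtb16* was at 74.13 CPM in Sed replicate 3, with the next at 29.63. The satellite cell markers (2 of 4 listed genes) had a summed level of 10.44 CPM in CC-Ex replicate 5, the lowest, with the next at 19.03. The Schwann cell markers (3 of 5 listed genes) summed to 127.1 CPM in Ex replicate 1 and to 59.59 CPM in CC-Sed replicate 5, the highest of their groups. The erythroid markers (3 of 4 listed genes) summed to 49.87 CPM in Sed replicate 5, the lowest, with the next at 104.5.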

How the results depend on the processing

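In the CC comparisons the 7 members other than *Nr3c1* kept a Log2FC above 0 in all 497 alternative values, of which 39 lost and 15 gained the call. The 2911 such values of other list genes cover only the 41 genes, outside the clock and marker lists, that passed in a CC comparison. Genes picked this way can seldom change sign, so their count of sign changes is no test of stability. Of these values 1 changed sign, *Crtc2* in Ex vs. CC-Ex (-0.0078 to 0.44 with 1 rat left out).

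The number of member DEGs in Ex vs. CC-Ex, 2, was 5 with DESeq2, 1 with upper-quartile scaling, 0 in the 12 rats alone and 0 to 5 with 1 rat left out, and that of other list genes, 9, was 15, 3, 0 and 0 to 17. In Sed vs. CC-Sed leaving out 1 rat gave 2 to 4 members and 6 to 14 other list genes, against 4 and 13. The averaged count of 4 became 7 by adjusted p-value alone. Pairs of members that passed, 9, became 0 in the saline rats. The causes were not tested.

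Same-numbered rats did not deviate together (mean r 0.0947 for Sed and CC-Sed, -0.172 for Ex and CC-Ex). With the replicate number as a block, the counts in Ex vs. CC-Ex were 0 members and 0 other list genes, and Log2FC values changed sign for *Zbtb16* in Sed vs. Ex (0.0061) and the interaction (-0.20) and for *Cebpd* in CC-Sed vs. CC-Ex (-0.0467) and the interaction (-0.13).

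None of the training and interaction values was called in any fit, and 32 of 320 and 34 of 248 alternatives changed sign. With limma-voom these were *Nr3c1* (-0.0044) and *Zbtb16* (0.082) in Sed vs. Ex, *Tsc22d3* (-0.27), *Klf15* (-0.26) and *Cebpd* (-0.54) in CC-Sed vs. CC-Ex, and *Tsc22d3* (-0.17), *Klf15* (-0.16), *Cebpb* (-0.077), *Cebpd* (-0.95) and *Zbtb16* (-0.48) in the interaction. The library number as covariate gave -0.0203 for the interaction of *Zbtb16*. With 1 rat left out the ranges were, in Sed vs. Ex, -0.069 to 0.40 for *Fkbp5*, -0.17 to 0.0078 for *Klf15*, -0.23 to 0.31 for *Cebpd* and -0.28 to 0.30 for *Zbtb16*. In CC-Sed vs. CC-Ex they were -0.38 to 0.086 for *Fkbp5*, -0.25 to 0.49 for *Tsc22d3*, -0.19 to 0.077 for *Klf9*, -0.25 to 0.38 for *Klf15*, -0.27 to 0.37 for *Cebpd* and -0.27 to 0.023 for *Zbtb16*. For the interaction they were -0.013 to 0.088 for *Nr3c1*, -0.043 to 0.70 for *Tsc22d3*, -0.16 to 0.47 for *Klf15*, -0.067 to 0.16 for *Cebpb*, -0.32 to 0.37 for *Cebpd* and -0.43 to 0.16 for *Zbtb16*.

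Relations that changed sign, none of which passed, were *Nr3c1* and *Fkbp5* in CC rats (r = 0.0061), *Nr3c1* with *Klf9* (0.25) and *Klf15* (0.31), *Fkbp5* and *Cebpb* (0.042), *Tsc22d3* and *Zbtb16* (-0.067) and *Klf15* and *Zbtb16* (-0.060) in saline rats, *Klf9* and *Cebpb* with upper-quartile scaling (-0.0751), and, without CC-Ex replicate 5, *Tsc22d3* and *Zbtb16* (-0.025) and *Klf9* and *Cebpb* (-0.029). How far depth limits these comparisons was not tested.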
